A study of Homo sapiens with 12 samples.

Results

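The p53 target genes MDM2, GDF15, SESN1, FAS, BAX, BBC3, TP53INP1, ZMAT3 and BTG2 were followed after knockdown of MESH1, an NADPH phosphatase whose gene is listed as HDDC3, in RCC4 cells, an established human line of clear cell renal carcinoma that lacks functional VHL. These 9 genes were chosen by symbol, with earlier results of these data known. All 9 of them were among the 23710 genes counted by RNA-seq. On GRCh38 (GENCODE 29) they are annotated as protein-coding and lie on 7 chromosomes, with MDM2 at chr12:68808176-68850686, GDF15 at chr19:18374731-18389176, SESN1 at chr6:108986437-109094819 and FAS at chr10:88990582-89015785. BAX lies at chr19:48954815-48961798, BBC3 at chr19:47220822-47232766, TP53INP1 at chr8:94925972-94949411, ZMAT3 at chr3:179017223-179072279 and BTG2 at chr1:203305491-203309602. The 12 libraries come from 2 experiments, each with 3 libraries of a MESH1 siRNA and 3 of its own non-targeting siRNA control (siNT), with 40 pmol of siRNA per well and collection at 72 hours in every group. One experiment used siMESH1-CDS, directed at the coding sequence, and the other used siMESH1-7002, directed at the 3'UTR. Since each siRNA was used in 1 experiment only, siRNA and experiment cannot be told apart. The cells carried no other perturbation, the siNT groups of both experiments received the same control siRNA, and all groups shared the genetic background of 1 cell line. The comparison asks which p53 targets changed with each siRNA and whether the 2 siRNAs agreed.

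p53 is a transcription factor held low by the ubiquitin ligase MDM2 and stabilized by DNA damage and other stress. It then raises genes that stop the cell cycle, start apoptosis, limit oxidative damage and, through MDM2 itself, switch p53 off again. The protein is controlled mainly by its stability and modification. Transcript counts of its targets report the output of the pathway, together with every other input to those genes.

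The siRNA target sequences are shown because the comparison rests on them, with the bases that pair with positions 2 to 8 of the guide strand (the seed) in capitals.
siMESH1-CDS: gggaaucacugACAUUGUg
siMESH1-7002: ctgaaggtctcctGCTAACTa
On GRCh38 with the GENCODE 29 annotation the first target lies at chr15:90932064-90932082, minus strand, in the coding sequence of HDDC3 and in 9 of its 10 annotated transcripts. The second lies at chr15:90931109-90931129, minus strand, in the HDDC3 3'UTR and in 6 of the 10 transcripts. Matches to the 7 seed bases of siMESH1-CDS were found in the longest annotated 3'UTR of MDM2 (2 sites), TP53INP1 (2 sites) and ZMAT3 (1 site). Of all genes tested, 17.3% held at least 1. The 3'UTRs of MDM2, TP53INP1 and ZMAT3 hold 10837, 4773 and 7794 bases, beside a median of 1430 over all genes tested. A longer 3'UTR has more room for a match, so this share is not a like comparison. The siMESH1-7002 seed matched 1 site in SESN1 and none in the other 8 target genes, against 6.70% of all genes tested.

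Promoter windows of 300 bases (250 before and 50 after each annotated start) from RefSeq on GRCh38.p14 were searched on both strands for the p53 response element, a pair of 10-base units each built around the core C, 2 bases, G. The element reads the same on both strands. A match kept the C and G of both cores, could differ from the consensus in at most 3 other letters and could have a spacer of at most 1 base, settings chosen after the promoters of these genes had been seen. Of the 8 target genes with a window in the table, 4 held a match, against 2.91% of 27305 genes, and TP53INP1 had no entry. Counted by window the shares were 31.2% of 16 and 2.38% of 35116. With settings chosen in this way neither contrast is a test. The best match of each gene is printed 5′ to 3′ with the cores in capitals.
MDM2: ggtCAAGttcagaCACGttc
GDF15: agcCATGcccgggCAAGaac
SESN1: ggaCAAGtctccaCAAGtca
FAS: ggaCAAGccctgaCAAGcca
They lie at chr12:68808923-68808942 (MDM2, plus strand), chr19:18386186-18386205 (GDF15, plus strand), chr6:109009018-109009037 (SESN1, minus strand) and chr10:88991309-88991328 (FAS, plus strand). Counted from the start site of their window, the matches began at base -94 for MDM2, 28 for GDF15, -49 for SESN1 and -122 for FAS. MDM2 and FAS differed from the consensus in 2 letters, GDF15 and SESN1 in 3. A match is a run of letters and not a measured binding site. BAX, BBC3, ZMAT3 and BTG2 held no such run in these windows.

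Libraries held between 34063155 and 49134129 reads in genes in the siMESH1-CDS experiment and between 24787804 and 31651125 in the siMESH1-7002 experiment. Levels are CPM, reads of a gene scaled to a common library total, after TMM scaling within each experiment, so levels of different experiments are set side by side and not tested. HDDC3 fell with both siRNAs, from 6.46 to 8.23 CPM down to 0 to 0.316 CPM with siMESH1-CDS and from 12.7 to 13.9 CPM down to 1.18 to 1.72 CPM with siMESH1-7002. All 8 markers of RCC4 and renal carcinoma cells (PAX8, PAX2, CA9, CDH2, VIM, KRT8, KRT18 and NDUFA4L2) reached 1 CPM in every library of 3 groups, and 6 of the 8 did so with siMESH1-CDS, where KRT18 fell from a mean of 77.3 to 2.76 CPM and NDUFA4L2 from 27.6 to 0.624 CPM. Markers of blood, endothelium, liver and muscle summed to at most 0.378 CPM in any library, and all 8 of them stayed under 1 CPM. The biological coefficient of variation was 0.299 in the siMESH1-CDS experiment and 0.0490 in the other.

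Changes with siMESH1-CDS followed the GC content of transcripts. When genes were divided into 10 classes by GC content, the class poorest in GC had a median log2 fold change of 1.10 and the richest one of -3.56. The same 2 classes had medians of 0.13 and -0.10 with siMESH1-7002. The siMESH1-CDS libraries shared the trend to unequal degrees, with medians of the highest class at -2.11, -2.48 and -1.65 for replicates 1, 2 and 3 (log2 of CPM plus 1, against the mean of siNT). The siMESH1-CDS changes of the 9 genes are therefore also given after a correction for GC content. So are those of other genes whose values are printed, where the correction ended a call or moved the fold by over 1.5 times. HDDC3 was at -5.56 on the log2 scale and at -3.75 after correction, KRT18 at -4.81 and -3.34, and NDUFA4L2 at -5.47 and -1.96. The correction removes the smooth trend of log2 CPM on GC content from each library and so assumes that genes of like GC content do not differ on average. It moved the median change of all genes from -0.05 to 0.13 with siMESH1-CDS and from 0.01 to 0.02 with siMESH1-7002. What part of the uncorrected changes the trend makes up was not tested. The trend enters the model as fixed, so adjusted p-values after correction leave out its uncertainty.

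With siMESH1-7002, 8 of the 9 target genes rose and none fell at an adjusted p (edgeR quasi-likelihood test, Benjamini-Hochberg over all genes) under 0.05, where 26.6% of the 13568 genes tested rose and 26.7% fell. FAS was the one not called. With siMESH1-CDS 6 rose (MDM2, SESN1, FAS, TP53INP1, ZMAT3 and BTG2), BAX fell, and GDF15 and BBC3 were not called, where 36.9% of 13395 genes rose and 37.2% fell. All 9 genes passed the filter on low counts in both experiments. They were chosen with earlier results of these data known, so the shares beside them describe and do not test. The median log2 fold change of the 9 genes was 0.57 with siMESH1-7002 and 1.3 with siMESH1-CDS, beside 0.01 and -0.05 over all genes tested. After GC correction 8 rose and 1 fell with siMESH1-7002 (background 31.6% and 28.3%), and 7 rose and none fell with siMESH1-CDS (background 38.8% and 27.2%). With siMESH1-7002 4 of the 9 were called above the study's fold threshold, all higher (background 2.85% higher and 6.21% lower), and 5 in one model of all 4 groups, all higher (background 8.04% and 10.2%). Before GC correction 5 genes were called higher with each siRNA (MDM2, SESN1, TP53INP1, ZMAT3 and BTG2), as were 15.5% of the 12824 genes tested in both experiments. After it 6 were (MDM2, GDF15, SESN1, BBC3, TP53INP1 and BTG2), beside 17.2% of all genes. Of these, GDF15 and BBC3 were called with siMESH1-CDS only after the correction.

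**Figure D1:**
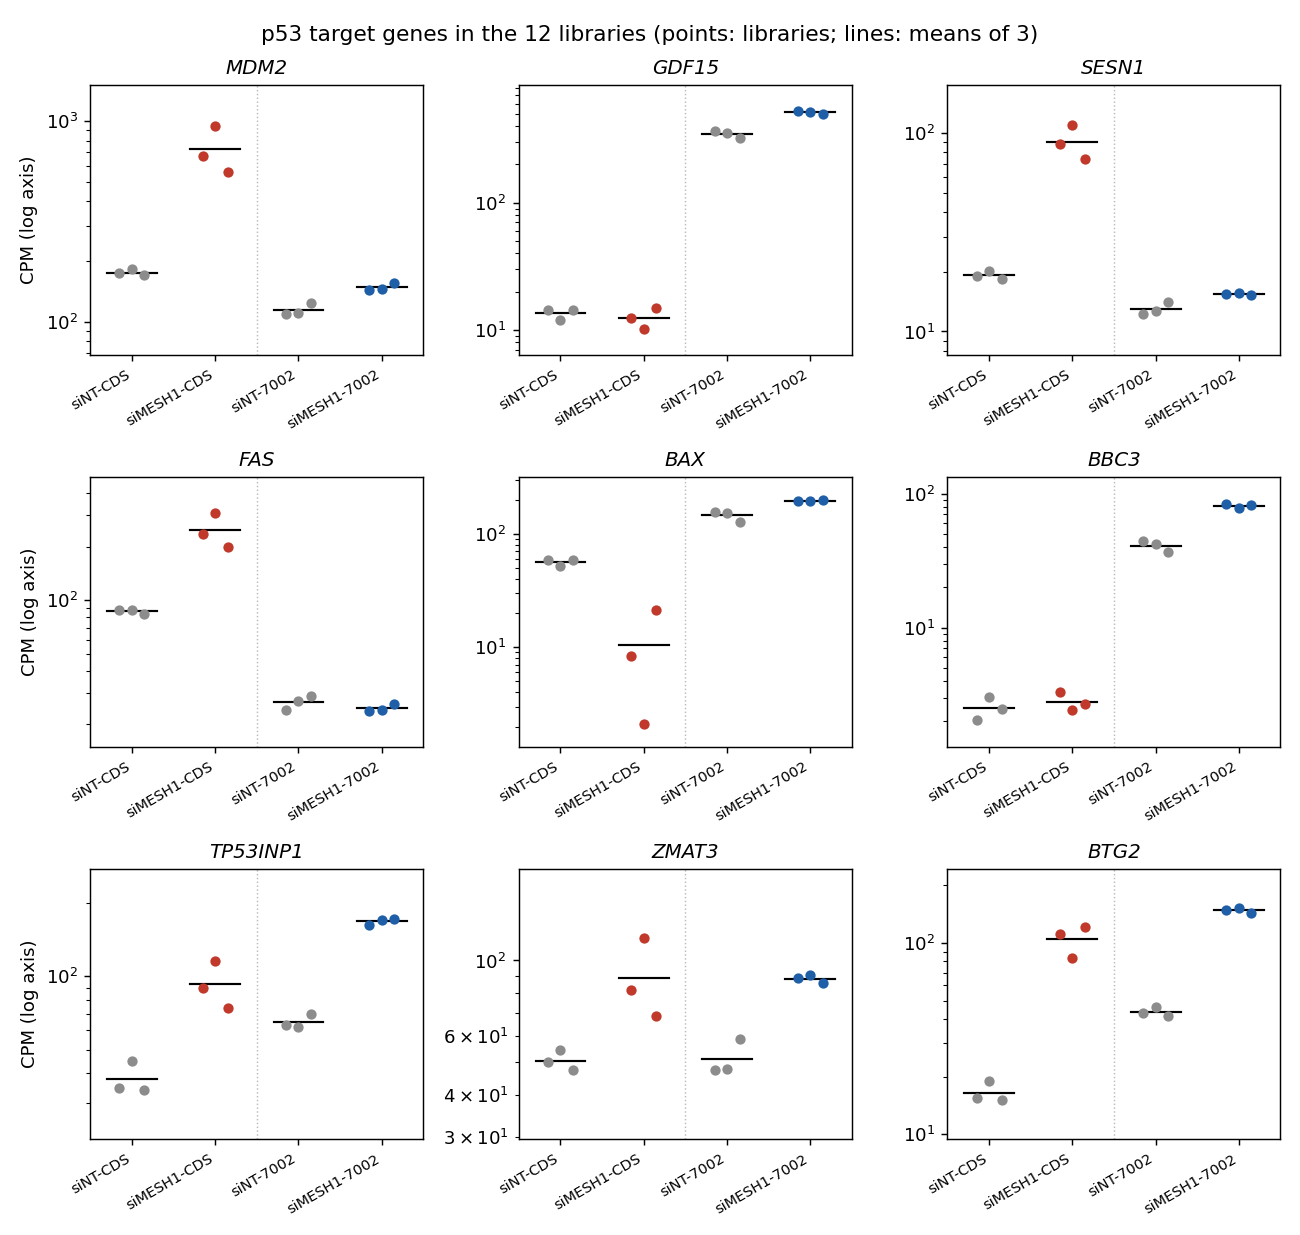
CPM (log axis, a separate range for each gene) of the 9 p53 target genes in the 12 libraries, with each point a library and each line the mean of 3, and the dotted line dividing the 2 experiments, which were scaled separately. BTG2, TP53INP1 and ZMAT3 rise in both experiments, MDM2 and SESN1 rise more with siMESH1-CDS, BAX falls with siMESH1-CDS to between 2.11 and 21.1 CPM, and GDF15 and BBC3 rise with siMESH1-7002 and overlap with their controls with siMESH1-CDS.

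MDM2 encodes the ubiquitin ligase that marks p53 for degradation, and is itself a p53 target, which closes the feedback loop. In the siNT-CDS libraries it stood at 174, 183 and 170.0 CPM, and in the siMESH1-CDS libraries at 670, 949 and 559 CPM. Every knockdown library lay far above every control. The rise was 4.13-fold (log2 fold change 2.05, SE 0.207, edgeR adjusted p = 5.54e-04), or 2.56-fold after GC correction. In the other experiment MDM2 measured 109, 111 and 124 CPM with siNT and 143, 146 and 157 CPM with siMESH1-7002. The groups were again apart, at a much smaller distance, and the rise was 1.3-fold (log2 fold change 0.37, SE 0.0562, edgeR adjusted p = 3.12e-05). A single model of all 4 groups, which shares 1 estimate of the spread over both experiments, did not call this smaller rise.

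SESN1 encodes sestrin 1, which restrains mTORC1 and takes part in the defence against oxidants. It was at 19.1, 20.1 and 18.4 CPM with siNT and at 87.8, 109 and 74.2 CPM with siMESH1-CDS. No library of one group reached the other, and SESN1 rose 4.71-fold (log2 fold change 2.24, SE 0.166, edgeR adjusted p = 2.98e-04), or 3.25-fold after GC correction. With siMESH1-7002 it was at 15.5, 15.6 and 15.2 CPM, against 12.2, 12.7 and 14 CPM in its siNT. This is the smallest of the 8 rises, 1.19-fold (log2 fold change 0.25, SE 0.0772, edgeR adjusted p = 0.0128). Without siNT-7002 replicate 1 the log2 fold change was 0.20 and was no longer called, and the single model of 4 groups did not call it either. The 3'UTR of SESN1 is the one among the 9 with a match to the siMESH1-7002 seed, and an effect of this site was not tested.

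BTG2, an antiproliferative factor that binds the CCR4-NOT deadenylase complex, had the largest uncorrected log2 fold change of the 9 genes with each siRNA. In siNT-CDS it measured 15.4, 19.0 and 15.1 CPM, and with siMESH1-CDS 112, 83.0 and 121 CPM. All 3 knockdown libraries were far above the controls, a rise of 6.37-fold (log2 fold change 2.67, SE 0.189, edgeR adjusted p = 2.78e-04). The siMESH1-7002 libraries held 148, 152 and 144 CPM against 43.3, 46.4 and 41.6 CPM, a rise of 3.38-fold (log2 fold change 1.76, SE 0.0537, edgeR adjusted p = 1.99e-13). After GC correction the changes were 3.15 and 1.80 on the log2 scale and called, and with siMESH1-CDS those of BBC3 and GDF15 were then larger.

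TP53INP1 encodes a nuclear protein that assists p53 phosphorylation and also acts in autophagy. With siMESH1-7002 it was at 163, 171 and 173 CPM and in siNT at 62.8, 61.7 and 70.2 CPM. The groups were far apart, and the rise was 2.60-fold (log2 fold change 1.38, SE 0.0551, edgeR adjusted p = 2.90e-12). With siMESH1-CDS it was at 89.6, 116 and 74.2 CPM against 34.6, 44.8 and 34.2 CPM in siNT. The highest control was below the lowest knockdown library, and the rise was 2.46-fold (log2 fold change 1.3, SE 0.205, edgeR adjusted p = 0.00218), or 1.39-fold after GC correction. ZMAT3 encodes a zinc finger RNA-binding protein that acts in the p53 tumour suppressor programme. Its siMESH1-7002 libraries held 88.7, 90.5 and 85.9 CPM and their controls 47.5, 47.7 and 58.5 CPM. All 3 knockdown libraries were above all 3 controls, and ZMAT3 rose 1.72-fold (log2 fold change 0.79, SE 0.0695, edgeR adjusted p = 6.87e-08). The siMESH1-CDS libraries held 81.6, 116 and 68.3 CPM against 50.0, 54.2 and 47.4 CPM. These groups did not overlap either, with a rise of 1.76-fold (log2 fold change 0.81, SE 0.208, edgeR adjusted p = 0.0134). ZMAT3 lies in the class of low GC content whose median change was 0.99, and after GC correction it was at -0.03 on the log2 scale with siMESH1-CDS and not called. Without siNT-CDS replicate 3 the uncorrected log2 fold change was 0.76 and not called.

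FAS is the death receptor for FAS ligand at the cell surface. It was at 88.4, 88.1 and 83.5 CPM in siNT-CDS and at 235, 308 and 199 CPM with siMESH1-CDS. The groups were far apart, and FAS rose 2.85-fold (log2 fold change 1.51, SE 0.170, edgeR adjusted p = 7.24e-04), or 1.59-fold after GC correction. In the siMESH1-7002 experiment FAS was at 23.9, 24.1 and 26.2 CPM, and at 24, 27.2 and 28.8 CPM in siNT. These ranges overlapped, and the log2 fold change of -0.10 (SE 0.0747, edgeR adjusted p = 0.255) was not called. After GC correction it was -0.19 and FAS was called lower with siMESH1-7002.

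BAX permeabilizes the outer mitochondrial membrane in apoptosis. It was at 58.3, 52.5 and 58.7 CPM in siNT-CDS and at 8.32, 2.11 and 21.1 CPM with siMESH1-CDS. The 3 knockdown libraries differed widely among themselves, in the same order as their GC trends (replicate 2 lowest, replicate 3 highest), and all were below the controls. BAX fell 5.37-fold (log2 fold change -2.43, SE 0.762, edgeR adjusted p = 0.0277). The call was lost without siMESH1-CDS replicate 1 (-2.28) and without siNT-CDS replicate 1 (-2.41), replicate 2 (-2.48) or replicate 3 (-2.40). The size of the fall was -1.92 without siMESH1-CDS replicate 2 and -3.46 without replicate 3. After GC correction BAX was at -0.10 and not called, and the median of all genes in its GC class was -2.56. With siMESH1-7002 BAX rose instead, from 157, 154 and 128 CPM to 194, 196 and 198 CPM. That rise was 1.34-fold (log2 fold change 0.42, SE 0.0621, edgeR adjusted p = 2.39e-05) with no overlap, and the single model of 4 groups did not call it.

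BBC3 encodes PUMA, a BH3-only protein that releases BAX and BAK from their inhibitors. Its siMESH1-7002 libraries held 83.2, 78.9 and 82.3 CPM against 44.1, 42.2 and 36.6 CPM in siNT. The groups were well apart, and BBC3 rose 1.99-fold (log2 fold change 0.99, SE 0.0642, edgeR adjusted p = 1.38e-09). In the siMESH1-CDS experiment BBC3 was low, at 2.05, 3.01 and 2.45 CPM in siNT and 3.32, 2.42 and 2.67 CPM in the knockdown, or 93 to 136 reads per library. These ranges overlapped, and the log2 fold change of 0.16 (SE 0.236, edgeR adjusted p = 0.546) was not called. It turned to -0.10 when libraries were scaled by their size alone, which moved the median of all genes to -0.31, and to -0.02 with a minimum of 10 counts in every library. BBC3 has the transcript richest in GC of the 9 genes (69.7%), in a class whose median change was -3.56, and after GC correction its log2 fold change was 5.06 and called higher. Most of that value is the correction, as the uncorrected change was 0.16. The uncorrected change lay 3.72 above the class median, which is less than the corrected value.

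GDF15 is a secreted stress cytokine of the TGF-beta family that responds to p53 and also to the integrated stress response. It measured 528, 513 and 502 CPM with siMESH1-7002 and 364, 351 and 326 CPM in siNT. Every knockdown library was above every control, and GDF15 rose 1.48-fold (log2 fold change 0.57, SE 0.0462, edgeR adjusted p = 2.52e-08). In the siMESH1-CDS experiment it was at 14.3, 11.9 and 14.4 CPM in siNT and 12.5, 10.2 and 14.8 CPM in the knockdown. The ranges overlapped, with a log2 fold change of -0.11 (SE 0.200, edgeR adjusted p = 0.626) that turned to 0.03 without siMESH1-CDS replicate 2. At 62.9% GC it shares the class of BBC3, and after GC correction its log2 fold change with siMESH1-CDS was 3.63 and called higher. All of that value comes from the correction, as the uncorrected change of GDF15 was -0.11, or 3.45 above the class median. The siNT levels of the same control siRNA stood at a mean of 13.5 CPM in one experiment and 347 CPM in the other, and those of BBC3 at 2.50 and 41.0 CPM.

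**Figure D2:**
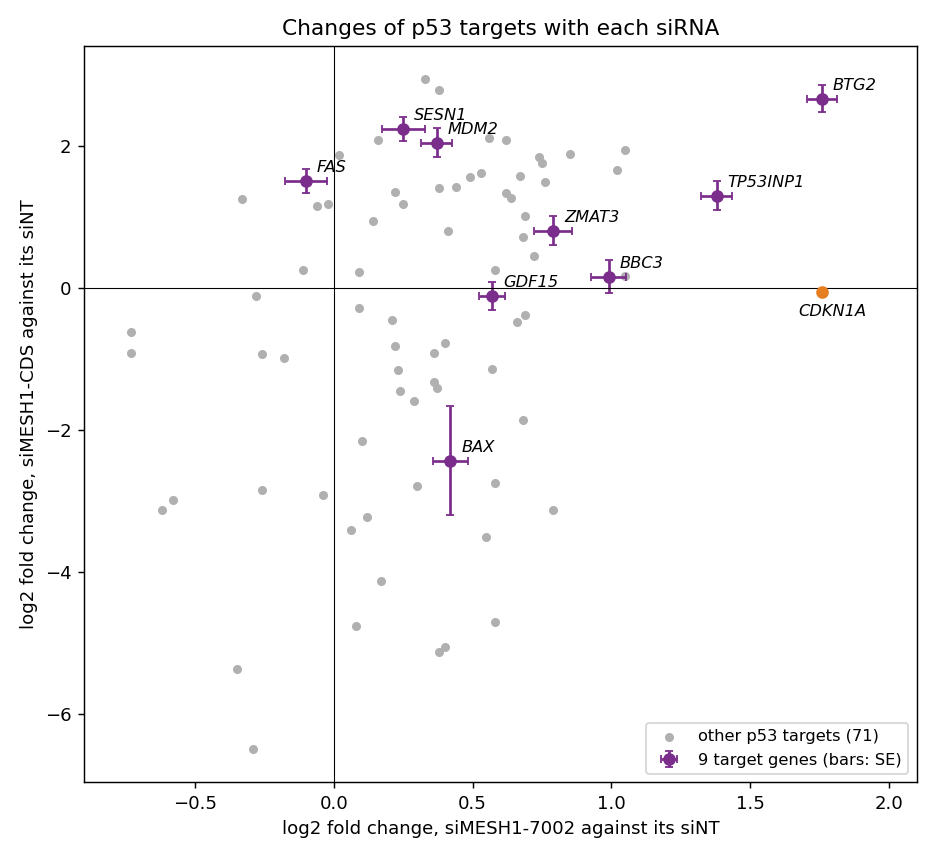
Log2 fold change with siMESH1-7002 (x axis) and with siMESH1-CDS (y axis) of the 9 target genes (purple, bars are SE), CDKN1A (orange) and the other p53 targets tested in both experiments (grey, 71 genes including CDKN1A). The values are not corrected for GC content. Among the 9, BTG2 (1.76 and 2.67) lies farthest up and to the right, and TP53INP1 (1.38 and 1.3) is next to it on the x axis. BAX (0.42 and -2.43) stands in the lower right quadrant, higher with siMESH1-7002 and lower with siMESH1-CDS.

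Groups did not overlap for 8 of the 9 genes with siMESH1-7002 (background 59.5% of all genes) and for 7 of the 9 with siMESH1-CDS (background 82.7%). For each of these the exact permutation test over 6 libraries gave p = 0.1, the smallest that 3 against 3 allows. In the model of all 12 libraries the average of both changes was called for 8 of the 9 genes, against 74.9% of all genes, with 7 higher and BAX lower (-1.08, SE 0.389). GDF15 was the one without a call (0.14, SE 0.0901). After GC correction 7 averages were called, all higher, where 28.9% of all genes were called higher and 36.2% lower, with GDF15 at 1.93 among them, while FAS (0.10) and BAX (0.14) were not called. The difference between the changes of the 2 siRNAs was called for 7 of the 9 genes, against 69.7% of all genes. It was not called for TP53INP1 (-0.23, SE 0.219) or ZMAT3 (-0.12, SE 0.237), whose changes stood at 1.3 and 1.38 and at 0.81 and 0.79 with siMESH1-CDS and siMESH1-7002. MDM2 (difference 1.52), SESN1 (1.84), FAS (1.47) and BTG2 (0.76) changed more upward with siMESH1-CDS, and GDF15 (-0.83), BBC3 (-0.98) and BAX (-3.0) more upward with siMESH1-7002. The first 4 have transcripts between 39.1% and 50.3% GC, the last 3 between 58.9% and 69.7%. After GC correction the differences of GDF15 (2.58) and BBC3 (2.70) turned to the side of siMESH1-CDS, that of BAX (-0.71) was not called, and those of TP53INP1 (-1.10) and ZMAT3 (-1.01) were called.

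**Figure D3:**
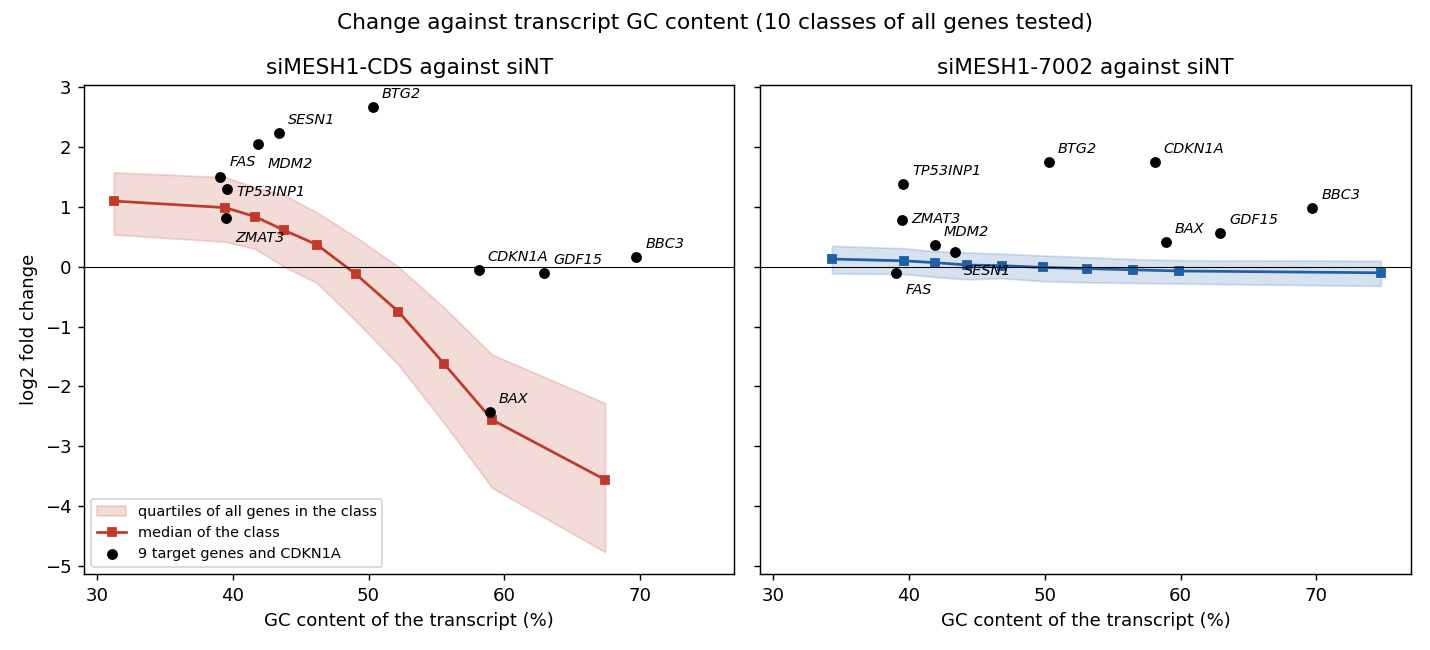
Log2 fold change against the GC content of the transcript (%) for the 9 target genes and CDKN1A (black points), with the median (squares, at the middle of each class) and the quartiles (band) of all genes in 10 classes of GC content. With siMESH1-CDS the class medians fall from 1.10 to -3.56 and BTG2, BBC3 and GDF15 stand far above their classes, while with siMESH1-7002 the medians stay between 0.13 and -0.10.

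Set against genes of like GC content, the 9 targets divided in another way. With siMESH1-CDS BTG2 exceeded 99.4% of the 1294 genes of its class, BBC3 97.8%, GDF15 96.8%, SESN1 95.8% and MDM2 92.6%. FAS exceeded 75.6% of its class, TP53INP1 65.9%, BAX 53.4% and ZMAT3 40.3%. BAX, which fell most of the 9, was thus close to the middle of its class, while BBC3 and GDF15, which were not called, were near the top of theirs. With siMESH1-7002 TP53INP1 exceeded 99.7% of its class, BTG2 99.6%, BBC3 98.9%, ZMAT3 97.1%, GDF15 96.1% and BAX 93.8%. MDM2 exceeded 84.9%, SESN1 76.3% and FAS 26.2%. These shares describe single genes and carry no test.

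**Figure D4:**
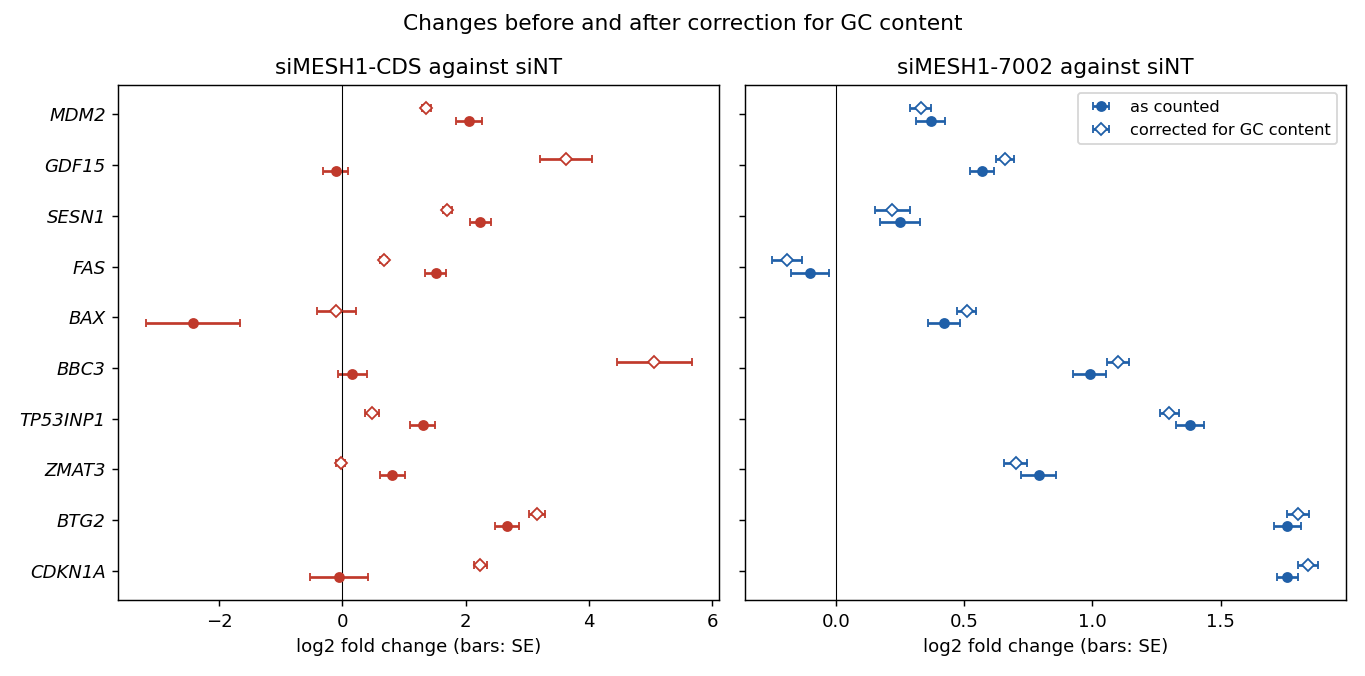
Log2 fold change (bars are SE) of the 9 target genes and CDKN1A as counted (filled circles) and after correction for GC content (open diamonds), with a separate range of the x axis for each siRNA. With siMESH1-CDS BBC3 moves from 0.16 to 5.06, GDF15 from -0.11 to 3.63, CDKN1A from -0.06 to 2.24 and BAX from -2.43 to -0.10, while the values with siMESH1-7002 move little.

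Sequencing lanes differed within the siMESH1-CDS experiment, and 2 of them (lanes 4 and 6) held a library of each group. In these lanes the log2 ratios of knockdown to control were 1.68 and 1.98 for MDM2, 1.96 and 2.26 for SESN1, 1.17 and 1.49 for FAS, 1.10 and 1.39 for TP53INP1, 0.45 and 0.78 for ZMAT3 and 2.97 and 2.88 for BTG2. BAX had -1.46 and -2.82, GDF15 0.05 and -0.20, and BBC3 0.39 and 0.44. The direction of each of the 7 called genes was thus the same within both lanes. A term for lane in the model changed no call among the 9. All libraries of the siMESH1-7002 experiment shared 1 lane.

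MDM4, which blocks the activation domain of p53, rose with both siRNAs (log2 fold change 1.17, SE 0.218, with siMESH1-CDS and 0.35, SE 0.0708, with siMESH1-7002). The siMESH1-CDS change was 0.53 and called after GC correction, and the single model of 4 groups did not call the siMESH1-7002 rise (edgeR adjusted p = 0.22). PPM1D, the phosphatase WIP1 that ends p53 signalling and is a p53 target, rose 3.44-fold with siMESH1-CDS (log2 fold change 1.78, SE 0.146) and 1.09-fold with siMESH1-7002 (0.12, SE 0.0488). The rise of PPM1D with siMESH1-7002 lies near the threshold (edgeR adjusted p = 0.0456). It was not called by DESeq2 or the single model of 4 groups, nor without any 1 of 5 of the 6 libraries (0.09 to 0.14).

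Among the 15 genes listed as regulators of p53, 14 passed the filter on low counts. With siMESH1-CDS 8 of them rose, 4 fell and 2 were not called, with a median log2 fold change of 0.71 (background 36.9% higher and 37.2% lower). With siMESH1-7002 6 rose, 4 fell and 4 were not called, with a median of 0.04 (background 26.6% and 26.7%). The gene that did not pass was CDKN2A, which encodes the MDM2 inhibitor ARF and had a mean of 0 CPM in both groups of the siMESH1-CDS experiment. HIPK2, a kinase that phosphorylates p53, fell with both siRNAs (log2 fold change -1.20 and -0.81), and SIRT1, a deacetylase of p53, rose with siMESH1-CDS (1.32, or 0.54 after GC correction) and fell with siMESH1-7002 (-1.12). These last 2 genes were picked after their values were seen.

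CDKN1A encodes p21, the CDK inhibitor that carries much of the arrest set off by p53. With siMESH1-7002 it was at 1192, 1188 and 1143 CPM, against 350.1, 351 and 336 CPM in siNT. The groups were far apart, and CDKN1A rose 3.40-fold (log2 fold change 1.76, SE 0.0413, edgeR adjusted p = 1.63e-14). With siMESH1-CDS it was at 64.5, 36.4 and 144 CPM, on both sides of the siNT values of 84.3, 82.9 and 87.5 CPM. The log2 fold change of -0.06 (SE 0.474, edgeR adjusted p = 0.918) was not called. The knockdown libraries stood in the order of their GC trends, as for BAX, and after GC correction the change was 2.24 and called higher. Without siMESH1-CDS replicate 3 the uncorrected change was -0.77 and called lower, and without replicate 2 it was 0.31. In lanes 4 and 6 the log2 ratios were 0.77 and -0.44.

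The list of other p53 targets held 77 genes, of which 72 passed the filter with siMESH1-7002 and 71 with siMESH1-CDS. It too was drawn up with earlier results of these data known, so its counts describe and do not test. With siMESH1-7002 48 rose (66.7%), 11 fell (15.3%) and 13 were not called, where 26.6% of all genes rose and 26.7% fell. The median log2 fold change was 0.36 beside 0.01 over all genes. With siMESH1-CDS 30 rose (42.3%), 31 fell (43.7%) and 10 were not called, near the 36.9% and 37.2% of all genes. The median was -0.28 beside -0.05 over all genes. After GC correction the siMESH1-CDS counts were 36 higher (50.7%) and 18 lower (25.4%), beside 38.8% and 27.2% of all genes. The median was then 0.32 beside 0.13 over all genes. Of the 71 genes tested in both experiments, 25 rose with each siRNA, 9 fell with each, 17 fell with siMESH1-CDS and rose with siMESH1-7002, and FBXO22 did the reverse. Over the 12824 genes tested in both, these shares were 15.5%, 15.1%, 5.65% and 5.93%. After GC correction of both experiments the counts were 30, 5, 10 and 3 genes, and the shares over all genes 17.2%, 12.3%, 5.65% and 8.28%.

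**Figure D5:**
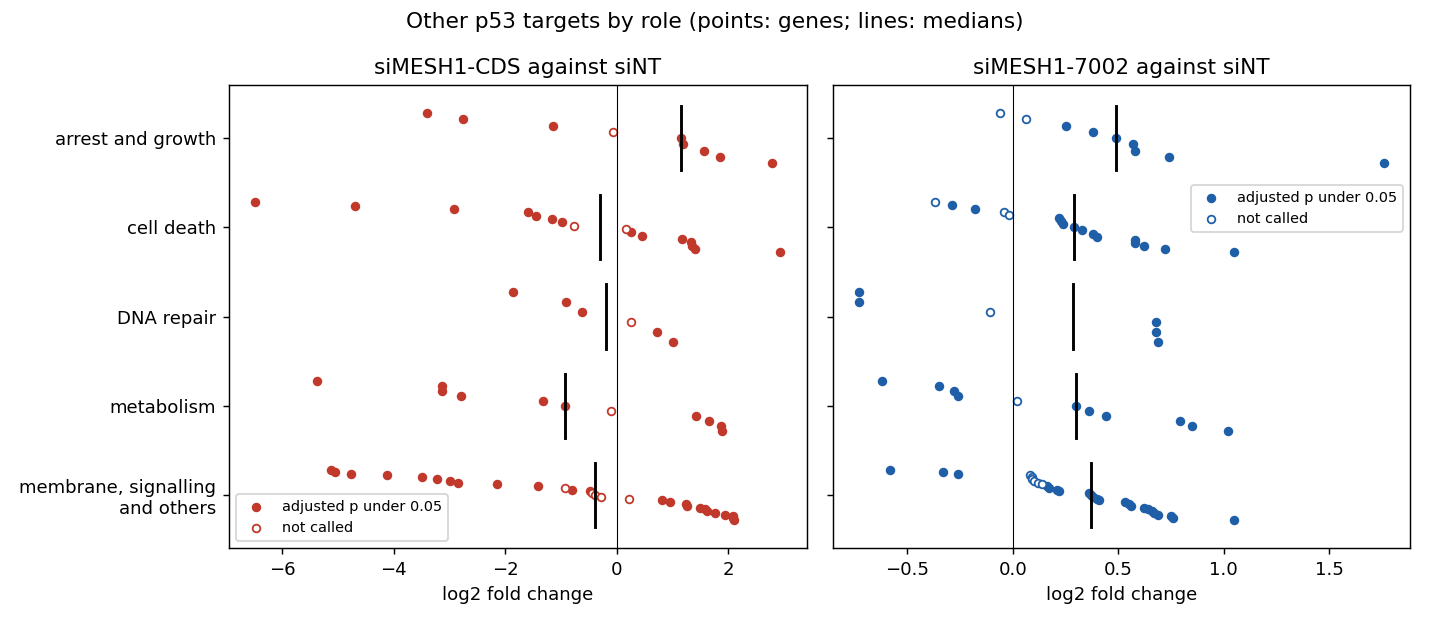
Log2 fold changes of the other p53 targets by role, with filled points for an adjusted p under 0.05, open points for genes not called and black lines for medians, and with a separate range of the x axis for each siRNA. With siMESH1-7002 the medians of all 5 roles lie between 0.28 and 0.49, while with siMESH1-CDS the arrest genes have a median of 1.16 and the metabolic genes of -0.93. The values are not corrected for GC content, after which these 2 medians were 1.53 and 0.75.

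The counts by role that follow stand beside 26.6% of all genes higher and 26.7% lower with siMESH1-7002, and 36.9% and 37.2% with siMESH1-CDS, or 38.8% and 27.2% after GC correction. Genes of arrest and growth rose with siMESH1-7002 in 7 of 9 tested and none fell (median 0.49). With siMESH1-CDS 5 rose and 3 fell (median 1.16), and after GC correction 7 and 1 (median 1.53). GADD45A, which takes part in arrest and repair, rose with both (1.85 with siMESH1-CDS, or 2.63 after GC correction, and 0.74 with siMESH1-7002 on the log2 scale), from 26.0 to 27.7 CPM up to 43.9 to 45.5 CPM in the siMESH1-7002 experiment. SESN2, the paralog of SESN1, rose with siMESH1-7002 (0.57) and fell with siMESH1-CDS (-1.14), and PLK3, a stress-responsive kinase, did likewise (0.58 and -2.75). After GC correction the siMESH1-CDS changes were 1.62 for SESN2, called higher, and 0.28 for PLK3, not called. The uncorrected call of SESN2 was also lost without siMESH1-CDS replicate 1 (-1.09) or siNT-CDS replicate 1 (-1.10), 2 (-1.16) or 3 (-1.15). Among the cell death genes 12 of 17 rose and 2 fell with siMESH1-7002 (median 0.29), and 7 rose and 7 fell of 16 with siMESH1-CDS (median -0.30, or -0.02 after GC correction with the same counts). EDA2R, a TNF receptor family member, rose with both (1.34 and 0.62). PHLDA3, an inhibitor of AKT, rose with siMESH1-7002 (0.58) and fell with siMESH1-CDS (-4.70, or -2.04 after GC correction). The single model of 4 groups did not call the siMESH1-7002 rises of SESN2, PLK3 and PHLDA3 (edgeR adjusted p = 0.225, 0.332 and 0.24).

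Of 6 DNA repair targets, 3 rose and 2 fell with siMESH1-7002, and 2 rose and 3 fell with siMESH1-CDS, or 2 and 2 after GC correction. POLH, a translesion polymerase, rose alike with both (0.72 with siMESH1-CDS and 0.68 with siMESH1-7002), and so did RRM2B, the p53-inducible subunit of ribonucleotide reductase (1.01 and 0.69), whose siMESH1-CDS change was 0.06 and not called after GC correction. FANCC, a Fanconi anaemia protein, fell with both (-0.91 and -0.73), and its siMESH1-CDS change was -0.34 and not called after GC correction. DDB2, which recognizes ultraviolet damage, rose with siMESH1-7002 (0.68) and fell with siMESH1-CDS (-1.86, or -1.16 after GC correction), a call lost without siMESH1-CDS replicate 1 (-1.80) or siNT-CDS replicate 1 (-1.86), 2 (-1.84) or 3 (-1.89). Metabolic targets rose in 6 and fell in 4 of 11 with siMESH1-7002, and rose in 4 and fell in 6 with siMESH1-CDS (median -0.93). These last counts became 5 higher and 2 lower after GC correction, and the median turned to 0.75. FUCA1, a lysosomal fucosidase, rose with both (1.89 and 0.85), from 35.1 to 37.6 CPM up to 132 to 135 CPM with siMESH1-CDS. ACER2, an alkaline ceramidase, rose with both as well (1.66 and 1.02) on 22 to 177 reads per library. FDXR, which passes electrons from NADPH to ferredoxin in mitochondria, rose with siMESH1-7002 (0.79) and fell with siMESH1-CDS (-3.13, or -0.15 and not called after GC correction), and the uncorrected call was lost without siMESH1-CDS replicate 1 (-2.96) or siNT-CDS replicate 2 (-3.06). The single model of 4 groups did not call the siMESH1-7002 rise of DDB2 or FDXR (edgeR adjusted p = 0.339 and 0.31).

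In the group of membrane, signalling and other targets 20 of 29 rose and 3 fell with siMESH1-7002 (median 0.37), while 12 rose and 12 fell with siMESH1-CDS (median -0.38). After GC correction 15 rose and 6 fell with siMESH1-CDS, and the median turned to 0.35. SPATA18, which acts in mitochondrial quality control, had the largest smaller change of the targets that moved alike (1.95 with siMESH1-CDS and 1.05 with siMESH1-7002). It was at 12.4 to 14.4 CPM in siNT-CDS and 46.5 to 59.1 CPM with siMESH1-CDS, and at 12.4 to 12.7 CPM and 25.1 to 26.6 CPM in the other experiment. RPS27L (1.5 and 0.76), KITLG, the ligand of the KIT receptor (1.76 and 0.75), BLOC1S2 (1.58 and 0.67) and RAP2B, a small GTPase (1.27 and 0.64), rose with both siMESH1-CDS and siMESH1-7002. The siMESH1-CDS changes after GC correction were 0.98 for RPS27L, 0.86 for KITLG, 0.82 for BLOC1S2 and 0.53 for RAP2B, all called. RPS27L has the paralog RPS27, and whether reads were split between the pair was not tested. PLXNB3, a semaphorin receptor, rose with siMESH1-7002 (0.55) and fell with siMESH1-CDS (-3.50), where it had 3 to 13 reads in the knockdown libraries, and was not called there after GC correction (0.23). The single model of 4 groups did not call its siMESH1-7002 rise (edgeR adjusted p = 0.127).

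Over the 12 libraries, with the mean of each experiment subtracted, log2 CPM of MDM2 and SESN1 had a Pearson correlation of 0.993, MDM2 and FAS 0.968, TP53INP1 and ZMAT3 0.973, and MDM2 and BAX -0.901. GDF15 ran closest to BBC3 among the 9 (0.771). Among 11549 genes the pattern of MDM2 was most like that of SENP7, TTC37, C6orf120, VMP1 and ZNF480 (0.999 each), whose transcripts hold 35.2% to 45.8% GC. The genes most like GDF15 were CD209 (0.977), PLIN2 (0.960), MBTPS1 (0.956), CDKN1A (0.955) and LOC100506385 (0.946). These values describe libraries that share their preparation and GC trend within a group, and have no test. In bulk libraries, fewer cells that express a gene and less of its RNA per cell cannot be told apart.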

How the data were processed

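Total RNA of RCC4 cells was made into libraries with a stranded poly(A) mRNA kit. Per the labels, the authors assessed reads with FastQC, aligned them with HISAT2 to hg19 and counted them with HTSeq, with versions and annotation not given in the sources used here. The deposited files hold raw counts of reads per gene, not normalized. Deposited DESeq2 tables of the authors' comparisons hold mean normalized counts, log2 fold changes, a test statistic and p-values, and were not used. Groups came from the sample labels. Depth is given as reads in genes, and 1 CPM after TMM scaling is worth 24.9 to 53.2 reads. The files' rows for unassigned reads were not used. Reads without a feature made up 14.29% to 24.71%, ambiguous reads 0.62% to 1.11% and reads of low quality 0% to 8.99%. The share of low quality was 0% in every library of the siMESH1-7002 experiment. These are shares of the reads in genes and of these kinds together, without reads that did not align or aligned more than once.

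Counts were tested in edgeR 4.0.16 (R 4.3.3) with filterByExpr, TMM scaling and quasi-likelihood F tests, separately for each experiment and with Benjamini-Hochberg adjustment over all genes tested (threshold 0.05). One model of 12 libraries, with a term for experiment, gave the average and the difference of both changes. An SE is the log2 fold change divided by the square root of its F. Exact permutation tests were two-sided over 20 assignments. For the GC correction, log2 CPM of each library (1 added as prior count) was smoothed against transcript GC content by lowess with span 0.3 and the curve entered the model as an offset. GC content came from GENCODE 29 on GRCh38, matched by symbol (21257 by name, 1102 by an older symbol, 1351 not matched). It is that of the longest annotated transcript of each gene, which need not be the one the cells express. Pairing by replicate number was checked from deviations from group means and is not used. Alternatives were DESeq2 1.42.0, its size factors in edgeR, library size only, other filters, a threshold of 0.01, the study's fold threshold, one model of 4 groups, a replicate block, a lane term and leaving out each library. The study's fold threshold is the one that defined its array signature, together with a t test. Here edgeR tested for a change beyond that fold, which is a stricter rule. Leaving out each library under the GC correction was added after seeing the data.

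The 9 genes and all gene lists were chosen with earlier results of these data known. Besides the 9, the text names HDDC3, MDM4, PPM1D, CDKN1A, up to 12 listed targets that both siRNAs moved alike and up to 6 called in opposite directions (33 and 18 qualified), with groups that did not overlap and a mean of at least 1 CPM, ranked by the smaller change, and the 5 genes most correlated with MDM2 and with GDF15. One gene of that rule is not reported here.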

Additional observations from a re-analysis of the deposited data

Results flagged for a closer look

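The change with siMESH1-CDS differed from that with siMESH1-7002 for 7 of the 9 genes by the test of the difference itself (edgeR, all 12 libraries), which also called 69.7% of all genes. The difference of log2 fold changes (siMESH1-CDS minus siMESH1-7002) was 1.52 for MDM2 (SE 0.222), 1.84 for SESN1 (SE 0.180), 1.47 for FAS (SE 0.197) and 0.76 for BTG2 (SE 0.195). It was -0.83 for GDF15 (SE 0.180), -0.98 for BBC3 (SE 0.217) and -3.0 for BAX (SE 0.786). The edgeR adjusted p was between 1.54e-05 (SESN1) and 0.00631 (BAX). After GC correction the differences were 0.75 for MDM2, 1.21 for SESN1, 0.58 for FAS and 1.15 for BTG2, and 2.58 for GDF15, 2.70 for BBC3 and -0.71 for BAX, of which that of BAX was not called. The siRNA and the experiment cannot be told apart in these differences.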

How the results depend on the processing

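With siMESH1-7002, 4 of the 9 genes were called above the study's fold threshold (4 higher) and 5 in one model of 4 groups (5 higher), and of the other p53 targets 18 (16 higher, 2 lower) and 27 (24 higher, 3 lower). Over all genes the first setting called 2.85% higher and 6.21% lower, and the second 8.04% and 10.2%. The other counts of calls over the 9 genes and over the other targets, averages and differences included, stayed within 1.5 times the reported count. This holds for calls of both directions together. For the other targets with siMESH1-CDS the split moved from 30 higher and 31 lower to 36 and 18 after GC correction. With a replicate block added to that correction it was 37 and 15. Over all alternatives, 363 single-siRNA values of the 9 genes kept direction and call, 25 lost the call, 16 gained it and 19 changed sign. For the other named genes these were 922, 72, 1 and 35. Averages and differences are outside this tally, and GC correction turned the sign of the BAX average (-1.08 to 0.14) and of the GDF15 and BBC3 differences. The changes of sign within the tally were all with siMESH1-CDS. GC correction, GC correction with a replicate block, and GC correction without each library in turn (lowest and highest) gave 3.63, 3.5 and 3.16 to 3.91 for GDF15, -0.03, -0.03 and -0.06 to 0.01 for ZMAT3, 2.24, 2.23 and 2.12 to 2.32 for CDKN1A, 0.28, 0.22 and -0.03 to 0.43 for PLK3, 1.62, 1.61 and 1.54 to 1.68 for SESN2, and 0.23, 0.23 and 0.05 to 0.34 for PLXNB3. GC correction without 1 library ran from -0.46 to 0.21 for BAX and from -0.63 to 0.17 for FDXR. Without GC correction, leaving out 1 library gave -0.27 to 0.03 for GDF15, -0.77 to 0.31 for CDKN1A, -3.46 to -1.92 for BAX, 0.58 to 0.95 for ZMAT3, -4.45 to -2.56 for FDXR, -3.27 to -2.27 for PLK3, -1.62 to -0.80 for SESN2 and -4.13 to -3.05 for PLXNB3, a lane term gave 0.17 for CDKN1A, and BBC3 was at -0.02 with at least 10 counts in every library and at -0.10 with library size only. The cause was not tested.

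Whether replicate numbers pair the libraries was not settled. Same-numbered libraries had correlations of deviations of -0.092, 0.345 and 0.227 in the siMESH1-CDS experiment and -0.103, 0.031 and -0.106 in the other. Libraries of unlike number ran from -0.366 to 0.271 and from -0.112 to 0.195. Deviations of 3 libraries from their own mean depend on each other, so these values cannot decide it. With the replicate block 7 of the 9 genes were called with siMESH1-CDS and 8 with siMESH1-7002, and all genes called numbered 9273 and 6972 instead of 9926 and 7235. Low counts limit some siMESH1-CDS values. BBC3 rests on 93 to 136 reads per library there, and in the knockdown libraries BAX had 81 to 735 reads, PLK3 15 to 80, FDXR 3 to 57, PHLDA3 9 to 43, PLXNB3 3 to 13 and HDDC3 0 to 11.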
